A study of Mus musculus with 20 samples.

Results

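The transcripts described here are those of the NF-kB subunits, the IkB inhibitors that hold them back and the feedback gene Tnfaip3, in mouse bone marrow-derived macrophages given cholesterol crystals, cyclodextrin or both. Members were all probes whose annotated gene symbol was Nfkb1, Nfkb2, Rel, Relb, Rela, Nfkbia, Nfkbib, Nfkbie, Nfkbiz or Tnfaip3. The bead signal file held 11 such probes among its 45281, and they covered 9 of the 10 genes. No probe was annotated to Nfkb1, which was not analysed here. Nfkbia and Nfkbie had 2 probes each, and the brighter stood for the gene in counts of genes. All 11 probes passed the detection filter, detection p below 0.05 on at least 5 arrays, which kept 18348 probes and 10018 genes in all.

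NF-kB is a family of dimeric transcription factors. Rela (p65) and Rel (c-Rel) act mainly in the canonical pathway, whereas Relb pairs with the product of Nfkb2 in the non-canonical pathway. IkB proteins keep the dimers in the cytoplasm until IkB kinases mark them for degradation, and Nfkbia, Nfkbie and Tnfaip3 are themselves NF-kB targets, so that the pathway restrains itself. In macrophages the pathway drives inflammatory genes after Toll-like receptor or TNF signals.

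The arrays fell into 4 groups of 5. The CD-cc cells received 200 μg of cholesterol crystals (a dose set to the number of cells) for 3 h and then 10 mM hydroxypropyl-beta-cyclodextrin, a sugar ring that takes up cholesterol, for 6 h. The CD cells received the same cyclodextrin for 6 h and no crystals, the cc cells received the crystals, and the con cells were untreated. All were C57BL/6 macrophages, differentiated from marrow over 6 days in medium with M-CSF at 40 ng/ml and fetal calf serum at 10%. The design text names LXR-deficient mice beside their wild-type littermates, but no array was labelled with a genotype. The labels give an age of 2 to 5 months for CD-cc, CD and cc arrays and of 10 to 15 months for con arrays, so treatment and labelled age cannot be told apart in any comparison with untreated cells. The labels leave out whether cc and con cells were kept for a matching time while the other cells were in cyclodextrin. Nothing in the labels says that replicates came from separate animals or cultures, so p-values measure the spread between these arrays, and 5 arrays a group limit their precision.

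The 20 arrays lay on 6 chips, 2 chips with 6 arrays (12 arrays, 3 of each group) and 4 chips with 2 arrays (8 arrays, 2 of each group). Xist, transcribed from the inactive X chromosome, was at log2 11.00 to 11.51 on the chips with 6 arrays and at 4.26 to 4.45 on the chips with 2 arrays, and Y-linked Eif2s3y was at 4.19 to 4.54 on the chips with 6 arrays and at 10.17 to 10.90 on the chips with 2 arrays. The sex of the donor cells, which the labels do not give, and the chip batch therefore cannot be told apart, and the members' changes, and those of the other genes named, are given within both batches as well. On the chips with 6 arrays all 3 CD-cc arrays were on one chip and all 3 CD arrays on the other. Of the chips with 2 arrays, none held both a CD and a con array, or both a CD-cc and a cc array. All 8 macrophage markers with a probe were detected on all 20 arrays, and some of them changed: Itgam (-0.88) and Cd14 (-1.14) were lower in cc against con, Mertk (-1.45) in CD against con and Fcgr1 (-1.43) in CD-cc against con arrays (log2 changes, limma adjusted p = 0.0248, 0.0113, 0.00975 and 0.0367). Among markers of other cells, T-cell Cd3e and Cd8a were detected on 0 arrays and no T-cell or dendritic-cell marker on 5 or more. B-cell Cd79b and Ms4a1 and 6 of 6 fibroblast markers were detected on 5 or more, and neutrophil S100a8 on all 20. The summed level of the fibroblast markers on a linear scale was 657 to 2320 in CD-cc, 581 to 1370 in CD, 746 to 1820 in cc and 506 to 1910 in con arrays, and the part of these cells in the results was not tested.

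Macrophages given crystals and then cyclodextrin carried more Tnfaip3, Relb, Nfkbib, Nfkb2 and Nfkbia mRNA than untreated ones, and cells given cyclodextrin alone carried more Relb. Cells given crystals alone carried more Tnfaip3 and less Nfkbiz, calls that were lost without some single arrays and on the chips with 2 arrays. Their Relb, Nfkb2 and Nfkbia differed from untreated cells by at most 0.10 log2 units. The SEs of 0.224 to 0.431 leave room for changes of these genes. Levels are log2 normalised bead signals, and a change is a difference of group means ± SE from a limma fit of all 20 arrays, called where the p adjusted over all 18348 probes (Benjamini-Hochberg) was below 0.05. In CD-cc against con arrays 5 of the 9 genes were called, all higher (Tnfaip3, Relb, Nfkbib, Nfkb2 and Nfkbia), where 18.9% of all genes were called in either direction and 8.53% higher. In CD against con arrays 1 of 9 was called (Relb, higher), where 1.04% of all genes were called and 0.809% higher, and 7 of 9 had an unadjusted p below 0.05. In cc against con arrays 2 of 9 were called (Tnfaip3 higher, Nfkbiz lower), where 15.9% were. In CD-cc against cc arrays limma called 0 of 9, as it did of all genes (0%), and 8 of the 9 had an unadjusted p below 0.05. In CD-cc against CD arrays 0 of 9 were called, where 8.26% of all genes were, and 1 of 9 had an unadjusted p below 0.05. The share of all genes with an unadjusted p below 0.05 is not given here or below. Such counts therefore do not show whether the members stand out from other genes. The measurements cannot tell more mRNA per cell apart from more cells that express the gene.

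The promoters of 4 members that were called with cyclodextrin, 3 in the fit above and Nfkbie in a fit with blocks described below, are shown because kB elements, the sites that NF-kB dimers bind, lie upstream of many NF-kB target genes. Each line gives the 250 bases before the start of a RefSeq transcript (build GRCm38.p6), read 5′ to 3′ on the gene's strand. Capitals mark every match, on either strand, to the 10-base kB consensus, with overlapping matches joined. Rela, which was not called in either fit, is shown beside them.
Nfkb2: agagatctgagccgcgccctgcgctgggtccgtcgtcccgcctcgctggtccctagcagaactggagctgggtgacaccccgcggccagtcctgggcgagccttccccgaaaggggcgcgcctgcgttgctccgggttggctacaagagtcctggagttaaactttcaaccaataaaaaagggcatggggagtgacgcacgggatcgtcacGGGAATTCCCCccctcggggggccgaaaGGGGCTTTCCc
Nfkbia: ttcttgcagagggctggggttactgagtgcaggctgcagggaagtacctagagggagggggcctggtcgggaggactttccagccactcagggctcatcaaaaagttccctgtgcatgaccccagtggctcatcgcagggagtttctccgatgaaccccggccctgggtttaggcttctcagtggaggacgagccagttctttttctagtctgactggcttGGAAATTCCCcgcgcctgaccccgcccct
Nfkbie: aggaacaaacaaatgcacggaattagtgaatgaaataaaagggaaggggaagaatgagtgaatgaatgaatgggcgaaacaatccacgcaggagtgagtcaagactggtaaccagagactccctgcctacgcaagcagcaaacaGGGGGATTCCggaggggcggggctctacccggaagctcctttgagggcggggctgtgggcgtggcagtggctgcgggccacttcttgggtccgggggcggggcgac
Tnfaip3: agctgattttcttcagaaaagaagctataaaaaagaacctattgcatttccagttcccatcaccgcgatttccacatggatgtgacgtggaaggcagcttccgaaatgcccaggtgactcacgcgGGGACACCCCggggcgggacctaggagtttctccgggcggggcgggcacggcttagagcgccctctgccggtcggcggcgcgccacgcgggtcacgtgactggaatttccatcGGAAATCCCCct
Rela: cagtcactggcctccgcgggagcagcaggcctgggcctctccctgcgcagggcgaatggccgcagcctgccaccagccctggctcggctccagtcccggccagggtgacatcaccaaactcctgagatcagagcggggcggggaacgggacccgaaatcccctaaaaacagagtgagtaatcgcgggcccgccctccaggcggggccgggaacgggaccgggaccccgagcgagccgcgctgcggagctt
These windows are chr19:46304487-46304736 on the plus strand (Nfkb2), chr12:55492648-55492897 on the minus strand (Nfkbia), chr17:45555450-45555699 on the plus strand (Nfkbie), chr10:19015411-19015660 on the minus strand (Tnfaip3) and chr19:5637291-5637540 on the plus strand (Rela). The Nfkb2 window held 3 matches, 2 of them overlapping, that began 39, 38 and 11 bases before the start, and the Nfkbia match began 29 bases before it. The Nfkbie match began 106 bases before the start, and the 2 matches of Tnfaip3 began 125 and 12 bases before it. The consensus matched in 7 of 10 windows of the 7 member genes with an entry, and in 7.25% of all 32851 windows of this length. By gene it matched in at least 1 window of 5 of the 7, the 4 shown with capitals and Rel, and of 8.23% of all 27025 genes. Nfkb2 had 2 further windows, both with a match, and Tnfaip3 a further one without, and the Rela and Nfkbib windows held no match. Nfkbib was nevertheless called in CD-cc against con arrays, and Rel, which had a match, was called in neither fit. Relb, called in both cyclodextrin groups against con, had no entry. A match is a run of letters and not a measured site.

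Relb, the non-canonical subunit, stood at 8.46, 9.12, 8.74, 9.59 and 9.70 in CD-cc arrays, at 8.65, 9.20, 8.79, 9.43 and 9.59 in CD arrays, at 8.14, 8.45, 8.12, 7.82 and 7.93 in cc arrays and at 7.76, 7.91, 8.41, 7.99 and 7.87 in con arrays, with the 3 arrays on chips with 6 arrays first in each group. Every array with cyclodextrin was above every untreated array, as were 1.91% of all genes in CD and 6.86% in CD-cc. Such a separation held for 5 of 9 members in CD against con (Relb, Nfkb2, Nfkbia, Nfkbiz and Tnfaip3) and for 3 of 9 in CD-cc against con (Relb, Nfkbib and Tnfaip3). Relb was higher by 1.14 ± 0.224 in CD against con arrays (2.21-fold, limma adjusted p = 0.0142) and by 1.13 ± 0.224 in CD-cc against con arrays (2.19-fold, limma adjusted p = 0.00165), in 5 of 5 array sets each. The call in CD against con was lost without either CD array on the chips with 2 arrays: without CD replicate 1 the limma adjusted p was 0.0586, without CD replicate 5 it was 0.0616, and on the chips with 6 arrays alone the change was 0.85 with an adjusted p of 0.232. It was also lost with the chip as a fixed block (1.01, limma adjusted p = 0.0651). Scale normalisation and leaving out the 3 dimmest arrays lost it too (limma adjusted p = 0.0598 and 0.0583). On the chips with 6 arrays with the chip as a block the limma adjusted p was 0.485. The call in CD-cc against con held under all alternatives tried (limma adjusted p = 0.000101 to 0.0412) except on the chips with 6 arrays with the chip as a block (0.83, adjusted p = 0.117).

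Nfkb2, which encodes the precursor that pairs with Relb, was likewise highest in the 2 cyclodextrin groups. Its levels were 7.98, 7.45, 7.94, 7.79 and 8.60 in CD-cc arrays, 7.83, 7.72, 8.16, 8.42 and 8.72 in CD arrays, 7.41, 7.17, 7.64, 6.65 and 6.76 in cc arrays and 7.48, 7.23, 7.40, 6.65 and 7.36 in con arrays. All CD arrays exceeded all con arrays, while 1 CD-cc array lay within the con range. Nfkb2 was higher by 0.73 ± 0.234 in CD-cc against con arrays (limma adjusted p = 0.0372). In CD against con arrays the difference was larger, 0.95 ± 0.234, but missed the threshold (limma adjusted p = 0.0595). The call in CD-cc against con was lost when any of 6 single arrays was left out, CD-cc replicates 1, 3 and 4 and con replicates 3, 4 and 5, with limma adjusted p-values of 0.0506 to 0.113. It was also lost with the chip as a fixed block (0.56, limma adjusted p = 0.272) and as a random block (adjusted p = 0.0591). Scale normalisation and no detection filter lost it too (limma adjusted p = 0.0915 and 0.0898). On the chips with 6 arrays the limma adjusted p was 0.168, and 0.46 with the chip as a block.

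Rela and Rel, the subunits that act mainly in the canonical pathway, showed no called change in any comparison of all 20 arrays. Rela averaged 11.54 ± 0.215 in CD-cc, 11.53 ± 0.255 in CD, 11.12 ± 0.279 in cc and 11.23 ± 0.229 in con arrays (SD, n = 5 each). Its largest difference, between CD-cc and cc arrays, was 0.42 ± 0.155 (limma adjusted p = 0.477), and every pair of groups overlapped. Rel averaged 5.69 ± 0.733 in CD-cc, 6.13 ± 0.656 in CD, 5.67 ± 0.25 in cc and 5.57 ± 0.31 in con arrays (SD, n = 5 each). Rel was detected on all 5 arrays of each group but was dim, down to 5.12 in con arrays. The normalisation shrinks changes of dim probes, so the lack of a call says less for Rel than for Rela. The spread of Rel in the cyclodextrin groups followed the chips, since its 3 CD-cc arrays on chips with 6 arrays were at 5.16 to 5.21 and its 2 on chips with 2 arrays at 6.22 and 6.73.

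**Figure D1:**
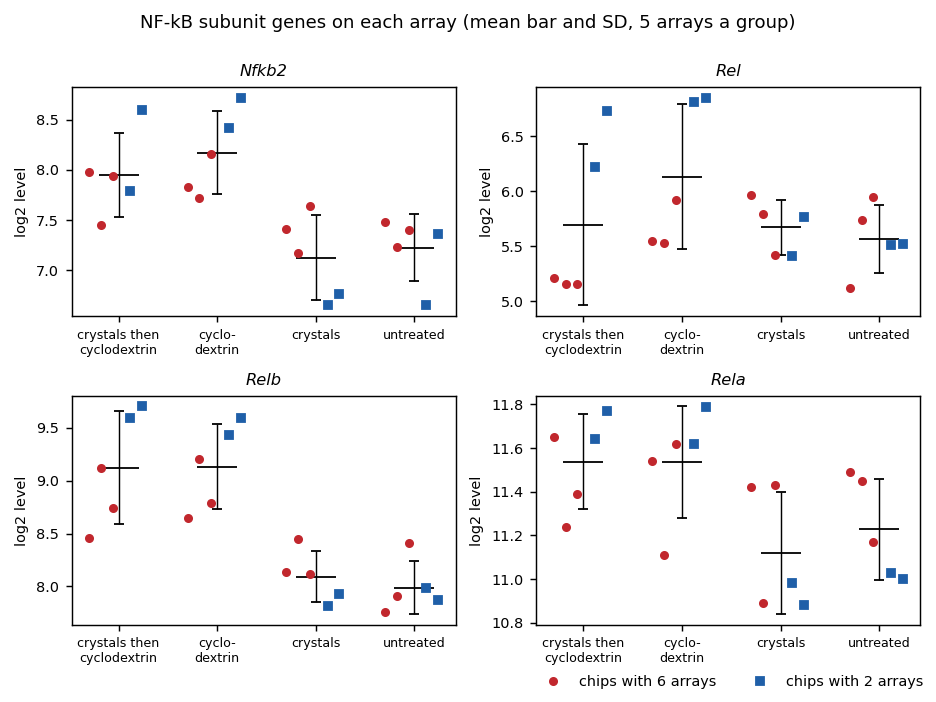
Level of the 4 NF-kB subunit genes with a probe on each array (vertical axis, log2 normalised bead signal) in the 4 groups; red circles are arrays on chips with 6 arrays, blue squares arrays on chips with 2 arrays, and bars give the mean and SD of 5 arrays. Every Relb value in both cyclodextrin groups, from 8.46 upward, lies above the highest untreated value of 8.41, while the Rela groups overlap.

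Nfkbia encodes IkB-alpha, the inhibitor that is rapidly remade after NF-kB activation. Its brighter probe gave 9.03, 9.91, 9.58, 10.84 and 11.42 in CD-cc arrays, 9.24, 10.11, 9.45, 11.13 and 11.74 in CD arrays, 8.57, 9.05, 8.39, 8.84 and 8.86 in cc arrays and 8.37, 8.72, 9.22, 8.97 and 8.90 in con arrays. The CD arrays did not overlap the con arrays, the lowest CD value being 9.24 and the highest con value 9.22, and the highest values of both cyclodextrin groups came from chips with 2 arrays. Nfkbia was higher by 1.32 ± 0.431 in CD-cc against con arrays (2.49-fold, limma adjusted p = 0.0404), and the difference in CD against con arrays was 1.50 ± 0.431 (limma adjusted p = 0.133). The second probe gave smaller differences of the same sign, 0.92 ± 0.362 and 1.05 ± 0.362 (limma adjusted p = 0.0892 and 0.257). The call in CD-cc against con was lost without any of 8 single arrays (CD-cc replicates 2, 4 and 5 and all 5 con replicates), with limma adjusted p-values of 0.0508 to 0.124, and with the chip as a fixed block (1.10, adjusted p = 0.0656). It was also lost without background correction, with scale normalisation and without the 3 dimmest arrays (limma adjusted p = 0.0549, 0.0591 and 0.0683). With no detection filter the limma adjusted p was 0.11. On the chips with 6 arrays it was 0.132, and 0.217 with the chip as a block.

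Nfkbib encodes IkB-beta, an inhibitor that is not a classical NF-kB target. It stood at 7.14, 6.56, 6.91, 6.92 and 7.26 in CD-cc arrays and at 6.20, 6.50, 6.11, 5.84 and 5.71 in con arrays, which did not overlap. Nfkbib was higher by 0.89 ± 0.192 in CD-cc against con arrays (1.85-fold, limma adjusted p = 0.00315), and this call held under all alternatives tried (limma adjusted p = 0.000592 to 0.0315) except on the chips with 6 arrays with the chip as a block (0.71, adjusted p = 0.0696). CD arrays averaged 6.73 ± 0.324 and cc arrays 6.42 ± 0.358 (SD, n = 5 each), between the other groups. Neither differed from con past the threshold, at 0.65 ± 0.192 for CD (limma adjusted p = 0.142) and 0.34 ± 0.192 for cc (limma adjusted p = 0.276).

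Nfkbie, the gene of IkB-epsilon, was the member whose means lay farthest apart between CD-cc and cc. The brighter probe gave 7.80, 8.73, 8.26, 10.18 and 10.28 in CD-cc arrays, 8.24, 8.83, 8.63, 9.97 and 10.46 in CD arrays, 6.59, 6.79, 7.04, 7.15 and 7.30 in cc arrays and 7.62, 7.83, 8.40, 7.94 and 7.83 in con arrays. All cc values were below all con values, and all CD-cc values were above all cc values, which 7.63% and 0.888% of all genes did, while 7.32% of all genes had every cc value above every con value. The difference in CD-cc against cc arrays was 2.07 ± 0.437 (4.21-fold), in 5 of 5 array sets, with a limma adjusted p of 0.113 in the fit without a block and 0.00965 with the array set as a block. The differences against con were 1.13 ± 0.437 in CD-cc arrays, 1.30 ± 0.437 in CD arrays and -0.95 ± 0.437 in cc arrays (limma adjusted p = 0.0851, 0.236 and 0.171). The second Nfkbie probe was dim, was detected on 3 CD-cc, 4 CD, 2 cc and 2 con arrays, and differed by 0.64 ± 0.274 between CD-cc and cc (limma adjusted p = 0.587).

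Nfkbiz encodes IkB-zeta, a nuclear protein induced by Toll-like receptor signals that helps NF-kB switch on secondary response genes. It stood at 9.99, 9.73, 9.62, 11.62 and 12.05 in CD-cc arrays, 11.13, 10.90, 11.64, 11.77 and 12.21 in CD arrays, 9.35, 8.92, 8.94, 8.91 and 9.15 in cc arrays and 10.90, 10.40, 10.42, 10.04 and 9.91 in con arrays. The cc arrays lay below all others and varied little, whereas the 5 CD-cc arrays split by chip, with 3 at or below 9.99 and 2 at or above 11.62. Nfkbiz fell by 1.28 ± 0.381 on the log2 scale in cc against con arrays (2.43-fold lower, limma adjusted p = 0.0285). It was the one member called lower with crystals in the fit of all arrays, but the call was lost without any of con replicates 1, 4 and 5 or cc replicates 1, 2 and 3 (limma adjusted p = 0.0529 to 0.0766). The call was also lost with scale normalisation, with no detection filter and on the chips with 2 arrays (limma adjusted p = 0.0633, 0.0789 and 0.0576). With cyclodextrin after crystals the difference from con was 0.27 ± 0.381 (limma adjusted p = 0.702) and that from cc was 1.55 ± 0.381 (limma adjusted p = 0.189, and 0.0405 with the array set as a block).

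Tnfaip3 encodes a ubiquitin-editing enzyme that ends NF-kB signalling, and it was the member with the largest difference from untreated cells. It stood at 9.92, 9.72, 9.56, 10.84 and 11.31 in CD-cc arrays, 9.06, 8.34, 8.78, 10.53 and 11.10 in CD arrays, 9.66, 9.45, 9.16, 8.84 and 8.99 in cc arrays and 8.16, 7.84, 7.48, 7.90 and 8.31 in con arrays. Every treated array was above every untreated one. Tnfaip3 was higher by 2.33 ± 0.424 in CD-cc against con arrays (5.03-fold, limma adjusted p = 0.000918), a call that held under all alternatives tried (adjusted p 3.01e-05 to 0.00621). It was higher by 1.28 ± 0.424 in cc against con arrays (2.43-fold, limma adjusted p = 0.049), near the threshold: this call was lost without any of 14 of the 20 arrays (CD-cc replicates 1, 2 and 5, CD replicate 3, all 5 cc and all 5 con replicates), with limma adjusted p-values of 0.0503 to 0.121. The same call was lost without background correction, with scale normalisation and with no detection filter (limma adjusted p = 0.0891, 0.0606 and 0.128). A trended, robust variance model and the chips with 2 arrays lost it too (limma adjusted p = 0.0579 and 0.153). In CD against con arrays the difference was 1.62 ± 0.424 (limma adjusted p = 0.0855), with the 3 arrays on chips with 6 arrays at 8.34 to 9.06 and the others at 10.53 and 11.10. Tnfaip3 and Nfkbiz, both NF-kB target genes, lay on opposite sides of the untreated level in crystal-treated cells.

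**Figure D2:**
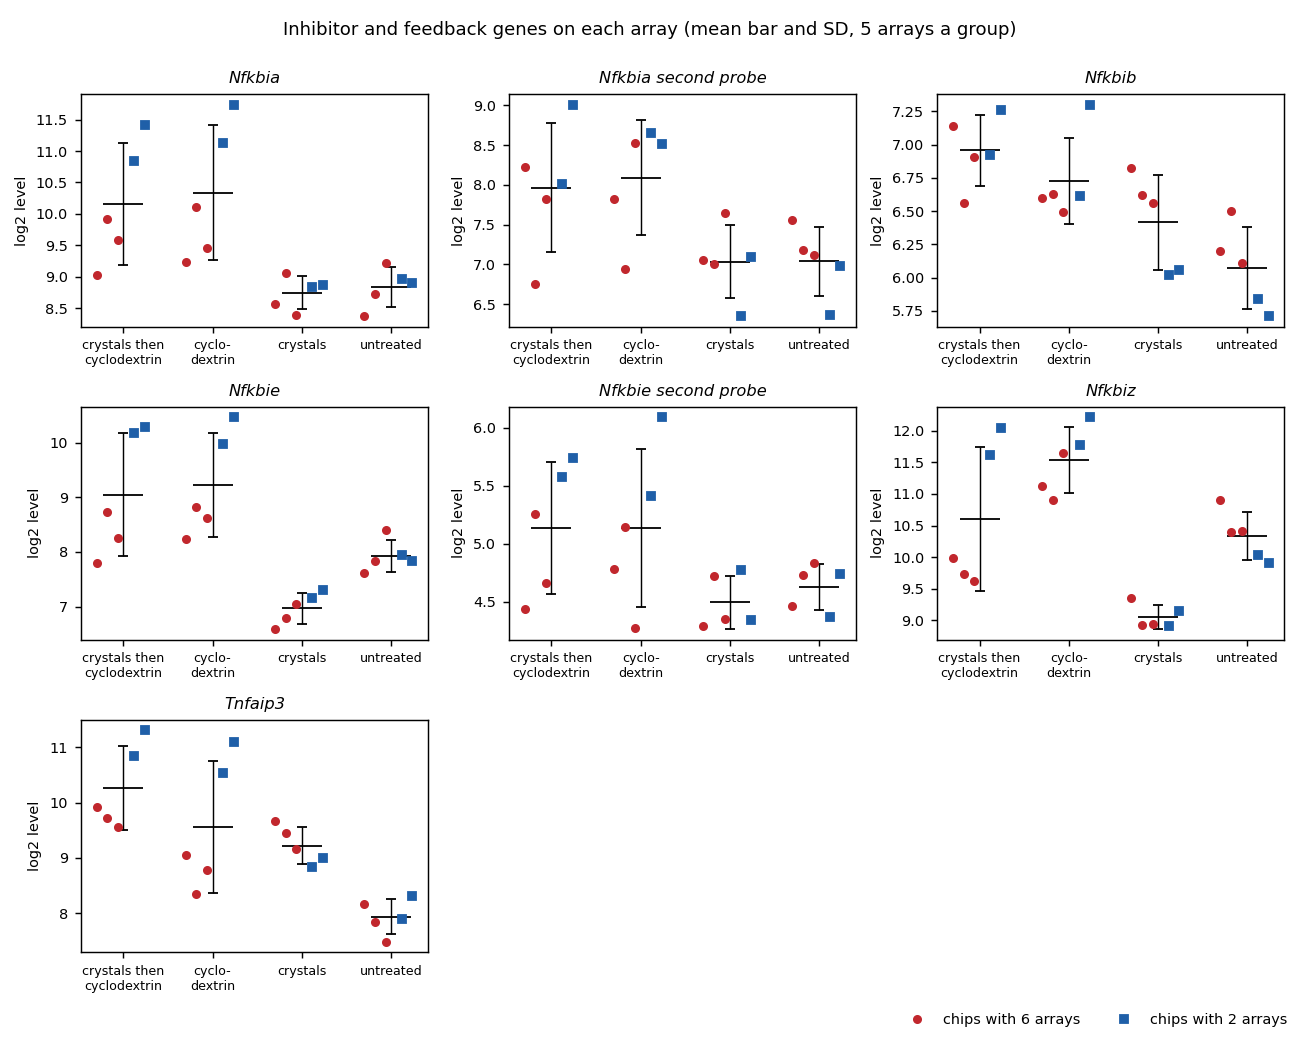
Level of the IkB inhibitor and feedback genes on each array (vertical axis, log2 normalised bead signal), with 1 panel for each of 7 probes, symbols for the chip batch, and bars for the mean and SD of 5 arrays. Blue squares, the arrays on chips with 2 arrays, are the highest values of the cyclodextrin groups for Nfkbia, Nfkbie, Nfkbiz and Tnfaip3, and the cc arrays of Nfkbiz sit between 8.91 and 9.35, below all other groups.

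The arrays did not resolve whether cyclodextrin changed the members differently with and without prior crystals. The median change of the 9 genes was 0.89 in CD-cc against con, 1.14 in CD against con and 1.03 in CD-cc against cc, where the median of all genes was -0.03, -0.02 and -0.02. These comparisons share arrays and are not independent of each other. The interaction, the change by cyclodextrin with crystals minus that without, passed the test for 0 of 9 genes by limma (0.0599% of all genes), and 0 of 9 had an unadjusted p below 0.05. It ranged from -0.58 ± 0.600 for Tnfaip3 to 0.77 ± 0.617 for Nfkbie, and these SEs leave room for differences of that size. Labelled age also enters the interaction, through its con arrays, and cannot be told apart from treatment in it. Between CD-cc and CD arrays the 9 differences ran from -0.93 ± 0.381 for Nfkbiz (limma adjusted p = 0.165) to 0.71 ± 0.424 for Tnfaip3 (limma adjusted p = 0.392).

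The deposited value table shows that the authors adjusted 5 sets of 4 arrays, 1 of each group, to a common mean, and a fit with this set as a block called more members. In CD-cc against con 6 of 9 were called, all higher (30.1% of all genes, 13% higher), Nfkbie joining the others. In CD against con 5 of 9 were called, all higher (3.64% of all genes, 2.38% higher): Relb, Nfkb2, Nfkbia, Nfkbie and Tnfaip3, with limma adjusted p-values of 0.00424, 0.0186, 0.00987, 0.0251 and 0.0137. In CD-cc against cc 4 of 9 were called, all higher (1.29% of all genes, 1.04% higher): Nfkbie, Relb, Nfkbia and Nfkbiz. In cc against con Tnfaip3 was higher and Nfkbiz and Nfkbie were lower (26.2% of all genes). The labels do not name these sets, which were read from the authors' table.

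**Figure D3:**
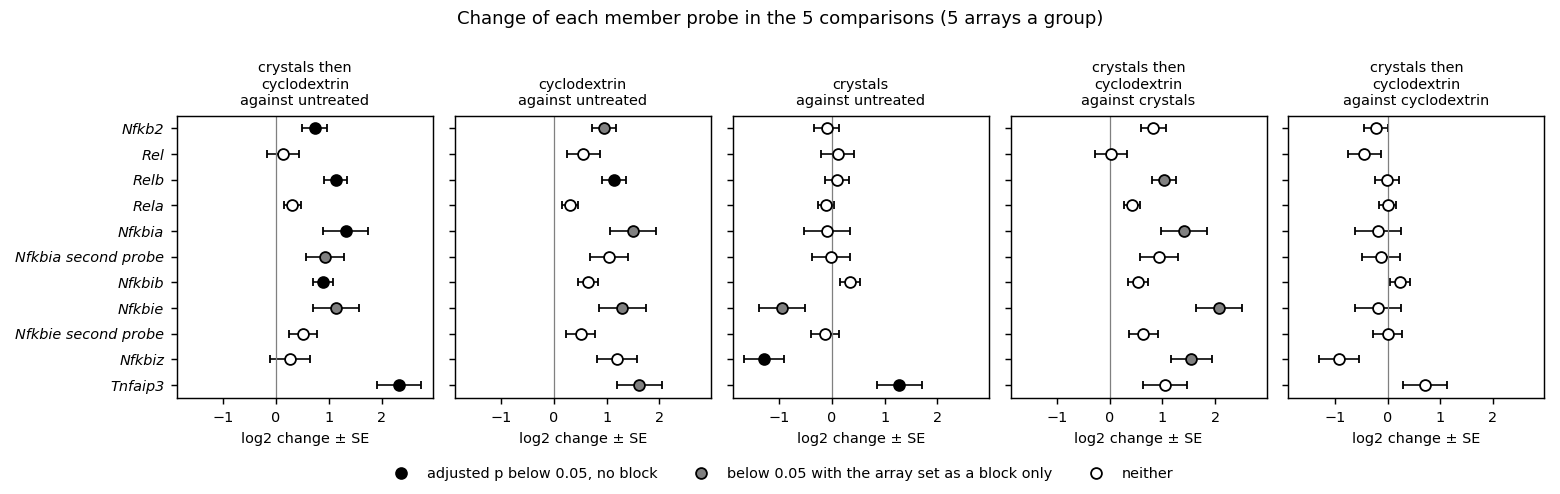
Change of each of the 11 member probes in 5 comparisons (horizontal axis, log2 difference of group means, bars 1 SE, limma fit of 20 arrays, 5 a group). Black points passed the adjusted threshold of 0.05 without a block, grey points passed it with the array set as a block only, and white points passed in neither; the Tnfaip3 change of 2.33 in crystals then cyclodextrin against untreated is the rightmost black point.

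The changes were not the same on both kinds of chip. On the chips with 2 arrays, fitted alone, all 9 genes were called higher in CD against con (6.42% of all genes called, 3.62% higher), in CD-cc against con (11.8%, 6.07% higher) and in CD-cc against cc (4.01%, 2.64% higher), with median changes of 1.58, 1.71 and 1.77. No chip with 2 arrays held both groups of CD against con or of CD-cc against cc. Treatment and single chip therefore cannot be told apart in those comparisons there. On the chips with 6 arrays, 0 of 9 were called in CD against con (0.489%) and in CD-cc against cc (0.02%), with medians of 0.62 and 0.38, while 6 and 5 of the 9 had an unadjusted p below 0.05 by limma. There, in CD-cc against con, Tnfaip3 (1.91 ± 0.221), Relb (0.75 ± 0.221) and Nfkbib (0.60 ± 0.168) were called higher and Nfkbiz (-0.79 ± 0.215) was called lower (15.7%). With the chip as a block on these 12 arrays, an alternative chosen after seeing the data, 1 of the 9 was called in CD-cc against con (7.32% of all genes), Tnfaip3 at 1.86 ± 0.284, and Nfkbiz was at -0.81 ± 0.276 (limma adjusted p = 0.00383 and 0.12). Crystals without cyclodextrin gave 3 of 9 called on the chips with 6 arrays (19.2%) and 0 of 9 on the chips with 2 arrays (2.08%), where 3 had an unadjusted p below 0.05 by limma. On the chips with 6 arrays Tnfaip3 was higher (1.60 ± 0.221) and Nfkbiz and Nfkbie were lower (-1.50 ± 0.215 and -1.14 ± 0.261), and on the chips with 2 arrays the same differences were 0.81 ± 0.240, -0.95 ± 0.207 and -0.66 ± 0.184.

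The difference between the 2 batches was itself tested, in a limma fit of group by batch. Nfkbie and Tnfaip3 differed in CD against con, by -1.71 ± 0.373 and -1.80 ± 0.356 (chips with 6 arrays minus chips with 2 arrays, limma adjusted p = 0.0489 and 0.027, where 0.669% of all genes differed). Nfkbie and Nfkbiz differed in CD-cc against con, by -2.03 ± 0.373 and -2.64 ± 0.329 (limma adjusted p = 0.0167 and 0.000909, 1.04% of all genes). Nfkbiz and Tnfaip3 differed in CD-cc against cc, by -2.09 ± 0.329 and -1.84 ± 0.356 (limma adjusted p = 0.00573 and 0.0209, 0.739% of all genes). Nfkbiz in CD-cc against con thus changed sign between the batches, at -0.79 ± 0.215 on the chips with 6 arrays and 1.85 ± 0.207 on the chips with 2 arrays. In cc against con 0 of 9 genes differed between the batches by this test (0.12% of all genes), and 1 had an unadjusted p below 0.05.

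In arrays without cyclodextrin the members' levels did not pass a test between the batches. In con arrays 0 of 9 genes differed (5.38% of all genes) and in cc arrays 0 of 9 did (4.39%), and 2 of 9 in each had an unadjusted p below 0.05 by limma. In CD arrays Rel, Nfkbia, Nfkbie, Nfkbiz and Tnfaip3 were lower on the chips with 6 arrays (11.2% of all genes differed in either direction, 5.18% being lower there), Tnfaip3 at 8.73 against 10.81 and Nfkbia at 9.60 against 11.43. In CD-cc arrays the same 5 genes and Relb were lower there (6.37%, 3.56% lower), with Nfkbiz at 9.78 against 11.83 and Nfkbie at 8.26 against 10.23. Because the batches differ in sex-linked transcripts as well as in chips, the part of sex, chip or any other feature of the batch cannot be told apart.

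**Figure D4:**
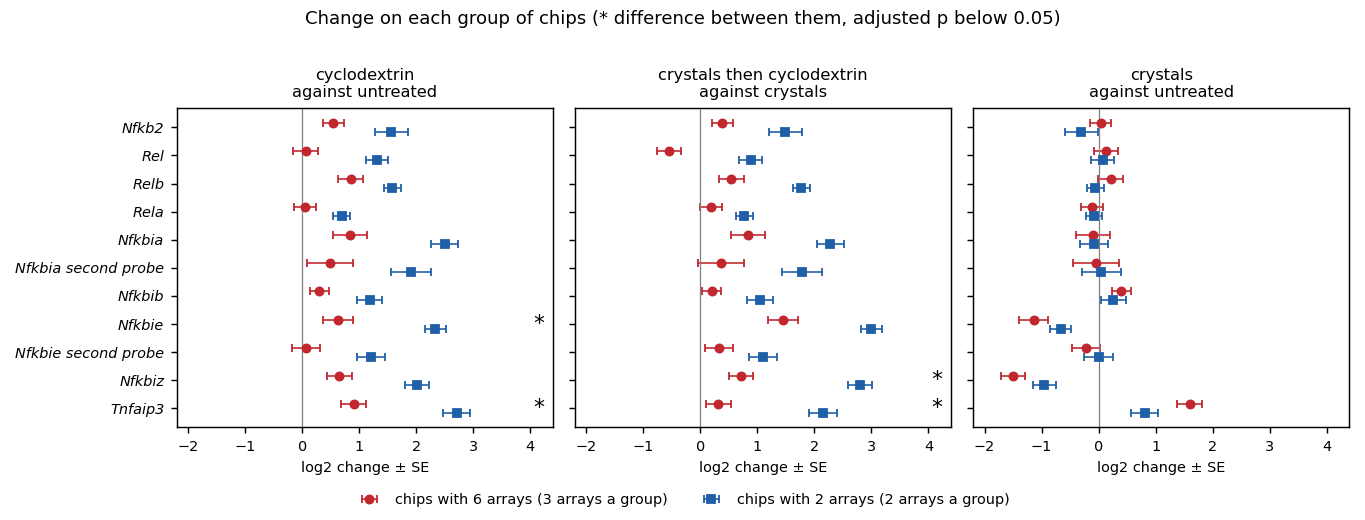
Change of each member probe fitted on the chips with 6 arrays alone (red circles, 3 arrays a group) and on the chips with 2 arrays alone (blue squares, 2 arrays a group), as log2 difference ± SE (horizontal axis) in 3 comparisons; asterisks mark probes whose change differed between the batches at an adjusted p below 0.05. In both cyclodextrin comparisons every blue square lies right of its red circle, as for Tnfaip3 in cyclodextrin against untreated at 2.71 and 0.90.

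Among cells given cyclodextrin after crystals on the chips with 6 arrays, 2 of 9 members differed from cells given cyclodextrin alone (10.6% of all genes), Tnfaip3 by 1.01 ± 0.221 and Nfkbiz by -1.45 ± 0.215 (limma adjusted p = 0.0135 and 0.00124). Those CD-cc arrays all lay on one chip and the CD arrays on the other, and cc and con arrays lay on both. With the chip as a block on these 12 arrays the 2 differences were 0.94 ± 0.338 and -1.48 ± 0.329 (limma adjusted p = 0.247 and 0.0523), and 0 of 9 were called (1.99% of all genes), with 2 at an unadjusted p below 0.05 by limma. Over all 20 arrays they were 0.43 and -0.79 with the chip as a block (limma adjusted p = 0.799 and 0.463). On the chips with 2 arrays limma called 0 of 9 (1.7% of all genes), 0 had an unadjusted p below 0.05, and the differences were 0.26 ± 0.240 and -0.16 ± 0.207.

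Among genes that NF-kB is known to switch on, the medians lay above that of all genes, which was -0.02 in CD against con and in cc against con and -0.03 in CD-cc against con. Of all genes 1.04% were called in CD against con, 15.9% in cc against con and 18.9% in CD-cc against con. Of 15 tested cytokine and chemokine targets, 4 were called higher in CD against con, with a median change of 1.67, and 9 were called higher in CD-cc against con, with a median of 1.80. In cc against con 0 of the 15 were called, with a median of 0.67. Tnf, the cytokine that itself activates NF-kB, averaged 10.76 in CD and 7.87 in con arrays, a difference of 2.89 ± 0.661 (limma adjusted p = 0.0393). The chemokine genes Cxcl10, Ccl3 and Ccl4 were higher by 2.73 ± 0.540, 2.61 ± 0.537 and 2.18 ± 0.368 in the same comparison (limma adjusted p = 0.0147, 0.019 and 0.00547), and Cxcl2, a neutrophil-attracting chemokine, by 3.54 ± 0.844 in CD-cc against con (limma adjusted p = 0.00612). The median of this list in CD against con was 0.45 on the chips with 6 arrays and 2.79 on the chips with 2 arrays. Each of these genes had its smaller difference on the chips with 6 arrays: Tnf 1.95 against 4.30 on the chips with 2 arrays, Cxcl10 1.69 against 4.29, Ccl3 1.93 against 3.64, Ccl4 1.77 against 2.79 and Cxcl2 2.39 against 5.27.

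Of 20 tested surface, enzyme and survival targets, 4 were called higher in CD against con (median 0.86): Cd40 (2.61 ± 0.478), the adhesion molecule gene Icam1 (1.84 ± 0.356), Traf1 (1.83 ± 0.375) and Sod2 (0.97 ± 0.211). The list's median was 0.39 on the chips with 6 arrays and 1.37 on the chips with 2 arrays, and these genes split likewise, Cd40 at 1.85 and 3.76, Icam1 at 1.22 and 2.76, Traf1 at 1.35 and 2.56 and Sod2 at 0.65 and 1.44. In CD-cc against con 8 were called higher (median 1.16). Crystals alone gave 4 higher and 2 lower (median 0.16), among them the survival genes Bcl2a1d (1.26 ± 0.264) and Bcl2a1b (1.23 ± 0.247), near-identical copies whose probes may not tell them apart, and Gadd45b (1.65 ± 0.294), while Cd83, a surface marker of activated cells, fell by 0.81 ± 0.172. Here the chips with 6 arrays gave the larger differences, Gadd45b at 2.25 against 0.74 on the chips with 2 arrays, Bcl2a1d at 1.63 against 0.71, Bcl2a1b at 1.58 against 0.70 and Cd83 at -0.93 against -0.63. The list's median in cc against con was 0.18 on the chips with 6 arrays (all genes -0.03). It was -0.06 on the chips with 2 arrays, below that of all genes (-0.01).

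The median changes of the machinery upstream of NF-kB lay between -0.09 and 0.08 in these 3 comparisons. Of 12 tested IkB kinases and activators, limma called 0 in CD against con (median 0.07), with 3 at an unadjusted p below 0.05, while Map3k14, the kinase of the non-canonical pathway, fell by 1.06 ± 0.292 in cc against con and fell by 1.28 ± 0.292 in CD-cc against con (limma adjusted p = 0.0181 and 0.00454). Ikbkg, the regulatory subunit of the IkB kinase, was higher by 0.56 ± 0.134 and 0.71 ± 0.134 there (limma adjusted p = 0.00811 and 0.00123). In cc against con Map3k14 was at -1.33 on the chips with 6 arrays and -0.67 on the chips with 2 arrays, and Ikbkg at 0.76 and 0.26. In CD-cc against con they were at -1.27 and -1.30, and at 0.86 and 0.47. Of 28 tested receptors and adaptors, 1 was called higher (Tlr2, 1.21 ± 0.268) and 1 lower (Tlr4, -0.86 ± 0.157) in CD against con, with a list median of 0.08. In cc against con 2 were higher and 4 lower, 6 of 28 where 15.9% of all genes were called, among the lower ones Tlr8 (-1.65 ± 0.275) and Cd14 (-1.14 ± 0.289), the co-receptor of Tlr4 that is also a macrophage marker. Tlr2 was at 0.70 on the chips with 6 arrays and 1.97 on the chips with 2 arrays, Tlr4 at -0.67 and -1.15, Tlr8 at -1.90 and -1.28 and Cd14 at -1.31 and -0.88.

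Other brakes on the pathway went in both directions. Of 28 tested inhibitors and ubiquitin editors, 2 were called higher in CD against con, Tnip1 (1.41 ± 0.323), whose product binds that of Tnfaip3, and Irak3 (1.24 ± 0.259), a brake on Toll-like receptor signalling. Tnip1 was at 0.78 on the chips with 6 arrays and 2.35 on the chips with 2 arrays, and Irak3 at 0.76 and 1.95. In CD-cc against con 6 were higher and 3 lower (18.9% of all genes were called). In cc against con 2 were higher and 5 lower, 7 of 28 where 15.9% of all genes were called. The anti-inflammatory cytokine Il10 fell by 1.34 ± 0.158, Trib1 fell by 1.04 ± 0.190 and Nfkbid, a further nuclear IkB gene, fell by 0.79 ± 0.151 (limma adjusted p = 1.72e-05, 0.00109 and 0.00151), beside Nfkbiz. Il10 and Trib1 were dim in cc arrays, averaging 5.09 and 4.91, and Trib1 was detected on 4 of the 5 cc arrays. Tax1bp1, an adaptor of the Tnfaip3 product, was higher by 0.73 ± 0.143 (limma adjusted p = 0.00193). Il10 was at -1.46 on the chips with 6 arrays and -1.15 on the chips with 2 arrays, Trib1 at -1.20 and -0.79, Nfkbid at -0.99 and -0.48 and Tax1bp1 at 0.87 and 0.51.

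**Figure D5:**
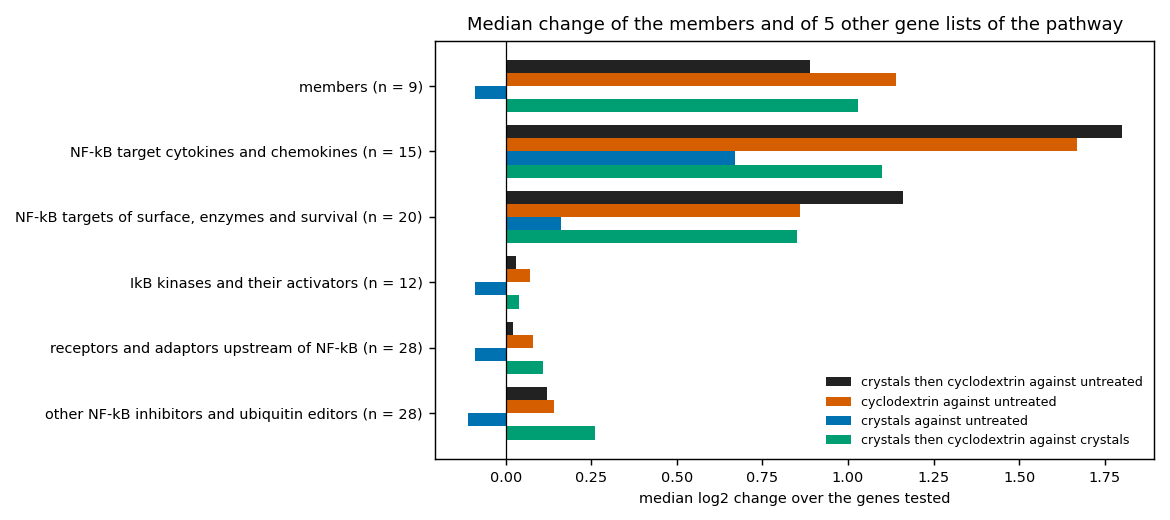
Median log2 change (horizontal axis) over the tested genes of the members and of 5 other lists of the pathway, with 1 bar for each of 4 comparisons. The 2 lists of target genes have medians of 1.67 and 0.86 in cyclodextrin against untreated, and the kinases, receptors and other inhibitors 0.07, 0.08 and 0.14.

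Whether the members' levels varied together from array to array differed between the chips. Over the 8 arrays on the chips with 2 arrays, Pearson r between the log2 levels of any pair of member genes was 0.87 to 0.99, and over the 12 arrays on the chips with 6 arrays it was -0.52 (Nfkbiz with Tnfaip3) to 0.96 (Relb with Nfkbia), with 13 of 36 pairs below 0 and a median of 0.16. These r values describe arrays that share treatments, chips and normalisation. The genes outside the list whose pattern was most like a member's, by the lower r of the 2 batches, were Icam1 for Relb (0.94 over 12 arrays and 0.99 over 8), Traf1 for Nfkb2 (0.88 and 0.96), Pdgfb for Nfkbia (0.95 and 0.98) and Tnfaip2 for Tnfaip3 (0.97 and 0.98). For Nfkbie it was Ehd1 or Klf7 (0.91 and 0.99, 0.91 and 0.97), for Nfkbiz Samsn1 (0.94 and 0.95), for Nfkbib G3bp1 (0.89 and 0.96) and for Rela Cgas (0.90 and 0.93). Rel had the least similar nearest gene, Efl1 (0.78 and 0.78). The second nearest genes were St7 for Nfkb2, Wdr37 for Rel, Rnf19b for both Relb and Nfkbia, Rims3 for Rela, Iah1 for Nfkbib, Gpr18 for Nfkbiz and Riok3 for Tnfaip3, with the lower r at 0.61 to 0.97.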

How the data were processed

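RNA of 20 macrophage samples was labelled with biotin and hybridised to Illumina mouse BeadChips. One deposited file holds an average bead signal, an intensity on a linear scale, by probe and array, as its values show, and the deposited detection p-value sets a probe against negative control beads, per the file headers. The authors' deposited value table is in log2 units. It was recomputed here as quantile normalised log2 bead signals with each set of 4 arrays moved to a common mean (maximum difference 0.0185), and the submitters' processing notes name Partek without its steps.

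All levels and changes start from the bead signals. The function neqc (offset 16) of limma 3.58.1, run in R 4.3.3, corrected the background, quantile normalised and took log2, and the offset shrinks changes of dim probes. A model of the 4 groups was fitted to the 18348 detected probes (lmFit, contrasts.fit, eBayes, two-sided). The brightest probe with 1 symbol stood for a gene, symbols coming from the platform annotation (34885 probes with 1 symbol, 18 with several and 10378 with none). The fits were tested on simulated data whose blocks followed the replicate numbers and which held no chip batch. That test does not bear on the differences between chip batches.

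The members, the gene lists and the tests were chosen with earlier results of these data known. Of each list, up to 4 genes with the largest change among those called in a comparison could be named, and for each member the 2 genes most like it. Median bead signal was 86.6 to 128 across arrays, and 15342 to 17892 probes were detected. Alternatives were other normalisations, filters, variance models, blocks (chip, array set, replicate number), either chip batch alone (the one with 6 arrays a chip also with the chip as a block, chosen after seeing the data) and leaving out each array in turn. Replicate numbers did not pair the arrays: same-numbered arrays had a median r of -0.2 between their deviations from group means, against 0.53 for arrays of one set. No 2 arrays held identical values.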

Additional observations from a re-analysis of the deposited data

Results flagged for a closer look

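Among 44 combinations of probe and group checked for a far array, 1 stood out, while chance gives about 1 in 20: Nfkbib in the CD group, where replicate 5 was at 7.30 and the nearest other array at 6.63 on the log2 scale, a gap of 0.826 of the group's range. That array lay on a chip with 2 arrays.

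In 6 tests a change differed between the chips with 6 arrays and the chips with 2 arrays (the first minus the second, on the log2 scale). Nfkbie differed by -1.71 in cyclodextrin against untreated (limma adjusted p = 0.0489) and by -2.03 in crystals then cyclodextrin against untreated (adjusted p = 0.0167). Nfkbiz differed by -2.64 in crystals then cyclodextrin against untreated (limma adjusted p = 0.000909) and by -2.09 in crystals then cyclodextrin against crystals (adjusted p = 0.00573). Tnfaip3 differed by -1.80 in cyclodextrin against untreated (limma adjusted p = 0.027) and by -1.84 in crystals then cyclodextrin against crystals (adjusted p = 0.0209). The batches also differed in Xist and Eif2s3y, and which feature of a batch goes with the differences cannot be told apart.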

How the results depend on the processing

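In crystals against untreated (2 called) the count was 1 without background correction and with the trended, robust variance model, 0 with scale normalisation, with no detection filter and on the chips with 2 arrays, and 0 to 2 without single arrays. In cyclodextrin against untreated (1 called) it was 0 with scale normalisation, with the chip as a fixed block, on the chips with 6 arrays (with and without the chip as a block) and without the 3 dimmest arrays, 2 with array weights, 4 in the authors' table with the set block, 5 with the set block, 7 in the authors' table without it, 9 on the chips with 2 arrays, and 0 to 3 without single arrays, with 0 without CD replicate 1 or CD replicate 5. In crystals then cyclodextrin against untreated (5 called) it was 3 with scale normalisation, with no filter and with the chip as a fixed block, 1 on the chips with 6 arrays with the chip as a block (added after seeing the data), 9 on the chips with 2 arrays, and 3 to 5 without single arrays. In crystals then cyclodextrin against crystals (0 called) it was 2 and 5 in the authors' table with and without the set block, 4 with the set block, 9 on the chips with 2 arrays, and 0 to 2 without single arrays (2 without CD-cc replicate 1). In crystals then cyclodextrin against cyclodextrin (0 called) it was 1 in the authors' table without the set block, 2 on the chips with 6 arrays and 0 to 1 without single arrays. With scale normalisation fewer of all 10018 genes were called too, 44 higher and 3 lower in cyclodextrin against untreated (81 and 23 in the main fit). In crystals then cyclodextrin against untreated they were 402 and 357 (855 and 1039 in the main fit). For several other settings no share of all genes is given, so their counts may follow the overall rate of calls. The authors' table already has set means removed, so a fit of it without the set term understates the spread. One value reversed with a call, Nfkbiz in crystals then cyclodextrin against untreated on the chips with 6 arrays (-0.79, adjusted p = 0.0282 by limma, 0.27 with all arrays). Of 2485 values of single probes under an alternative, the interaction included, 2346 kept their side of the threshold, 74 passed it only there and 64 missed it only there. Most of the 2485 belong to changes that were not called with all arrays. All 64 losses fall on the few changes that were called, so the total does not measure how stable the calls were. The causes were not tested.

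With the replicate block, the number in the titles as a block, limma called 2, 1, 5, 0 and 0 members in the 5 comparisons (crystals, cyclodextrin, and both against untreated, then both against crystals and against cyclodextrin), as without it, and it changed no call of a member. The numbers do not pair the arrays. The second Nfkbie probe was detected on 11 of 20 arrays. Its changes start from near background and may be underestimates, which was not tested.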
